A study of Hapsidospora chrysogena with 9 samples.

Results

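Of the 8899 genes in the expression table of Hapsidospora chrysogena, 133 were lower than in wild type both in the strain that overexpresses the Myb transcription factor gene AcmybA and in the strain that has lost it. They were chosen by their values: among the 7360 genes with a mean of at least 10 FPKM (fragments normalised to both transcript length and library size), the average of log2(FPKM + 1) had to lie at least 0.75 below wild type in each mutant, and wild type had to be above both mutants at each of 3 culture times. The differences from wild type that follow are therefore a description of what chose the genes, with no test. The mirrored rule, wild type lowest at each time and both mutants at least 0.75 above it, took 44 genes; both sets are read against the same 3 wild-type libraries.

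H. chrysogena, long called Acremonium chrysogenum, is the filamentous fungus from which cephalosporin C, the parent compound of the cephalosporin antibiotics, is made. Myb proteins bind DNA through repeated helix-turn-helix units with conserved tryptophans, and in filamentous fungi members of the family are known as regulators of asexual sporulation and of secondary metabolism. The study's title names AcmybA as a repressor of conidiation, the formation of asexual spores, and of cephalosporin production. An overexpression strain and a loss strain of a regulator are usually read for opposite changes, whereas the genes described here lay on the same side of wild type in both.

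RNA was taken from mycelium of 3 genotypes grown in LPE medium, the AcmybA overexpression strain (AcmybAOE), the AcmybA knockout (∆AcmybA) and the wild type, at 48, 72 and 96 h, with 1 library for each strain and time and so no repeat of any condition. The promoter that drives the extra AcmybA, its copy number, the number of transformants behind each mutant and the name of the parent strain were not stated in what was used here. The table lists protein identifiers without gene names or functions, so no function is given for any gene below, the level of AcmybA in the mutants was not analysed here, and lists of cephalosporin and conidiation genes were not used. Each library summed to between 852915 and 1124540 FPKM and listed between 302 and 503 genes at 0. Sequencing depth is not stated; from the steps of low values it was put, against the wild-type 96 h library, at 1.77 to 2.39 for the overexpression libraries, 0.829 and 0.895 for the 72 and 96 h knockout libraries, and 0.933 and 0.953 for the earlier wild-type ones. For the knockout at 48 h the estimate was 1.20. It and the 2.23 of overexpression at 96 h are the least firm, with log-likelihoods only 6.22 and 4.24 above the next best depth, so whether the overexpression libraries were deeper than that knockout library is not settled. Relative to wild type, and to the knockout at 72 and 96 h, the overexpression estimates were higher, and depth and strain cannot be told apart there.

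The 133 genes covered a wide range of levels, with a mean over the 9 libraries of 10.9 FPKM at the lowest, 62.9 at the median and 18808 at the highest. Their median was 27.8, 29.3 and 25.7 FPKM at 48, 72 and 96 h in overexpression and 37.9, 40.9 and 26.6 FPKM in the knockout, against 117, 124 and 97.4 FPKM in wild type. All 7360 genes had medians between 49.0 and 53.3 FPKM in every library, so the wild-type medians of the 133 lay above those of the table and the mutant medians below. The median log2 difference from wild type was -1.56 in overexpression (quartiles -2.49 and -1.12) and -1.54 in the knockout (quartiles -2.14 and -1.04). Both differences were at most -1 for 94 of the 133 genes and at most -2 for 29. For 80 of them the lowest wild-type library was above the highest of the 6 mutant libraries, a separation that the rule favours and that 1.98% of the 7360 genes showed. In RNA from whole mycelium, fewer cells of a kind and less RNA per cell cannot be told apart.

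**Figure D1:**
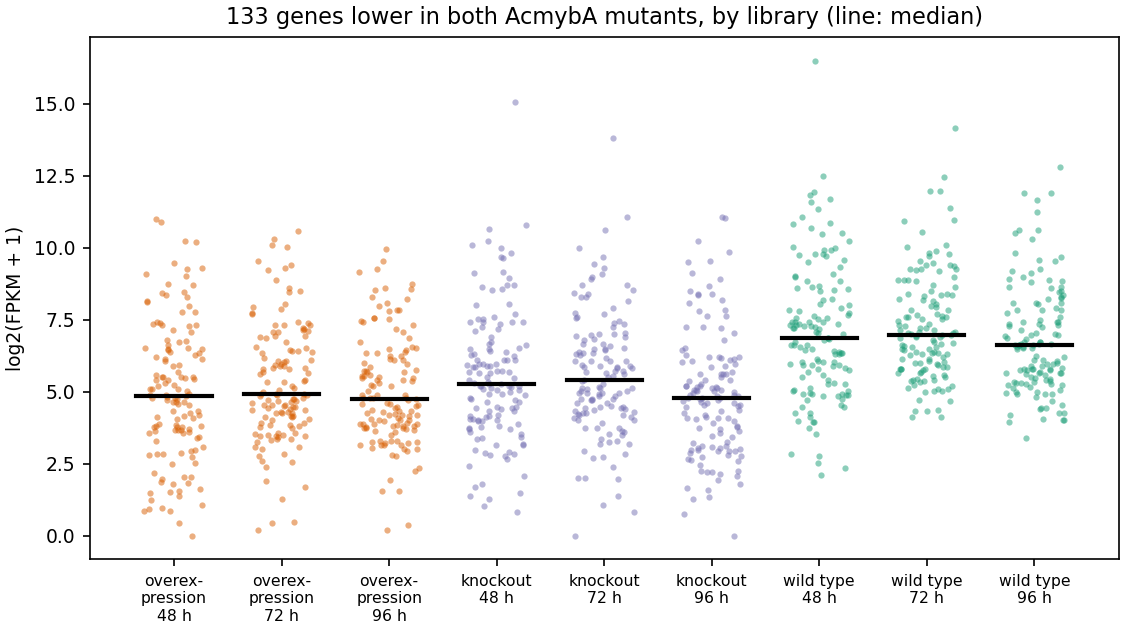
Level of each of the 133 genes (points, log2(FPKM + 1)) in each library, overexpression, knockout and wild type from left to right, each at 48, 72 and 96 h; lines mark medians. Medians were 25.7 to 29.3 FPKM in overexpression and 26.6 to 40.9 FPKM in the knockout, against 97.4 to 124 FPKM in wild type.

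In the fit across all genes, which the rule's contrasts share, 57 of the 133 passed limma's test as lower in overexpression, where 2.53% of 8482 tested genes did, and 31 as lower in the knockout, where 0.943% did; nothing is read from these counts. The genes just inside the threshold were KFH47057.1, KFH41267.1 and KFH44975.1, whose weaker difference was -0.77, -0.77 and -0.78. KFH43195.1, KFH47104.1 and KFH42781.1 met the other conditions and lay just outside, with -0.75, -0.73 and -0.73.

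**Figure D2:**
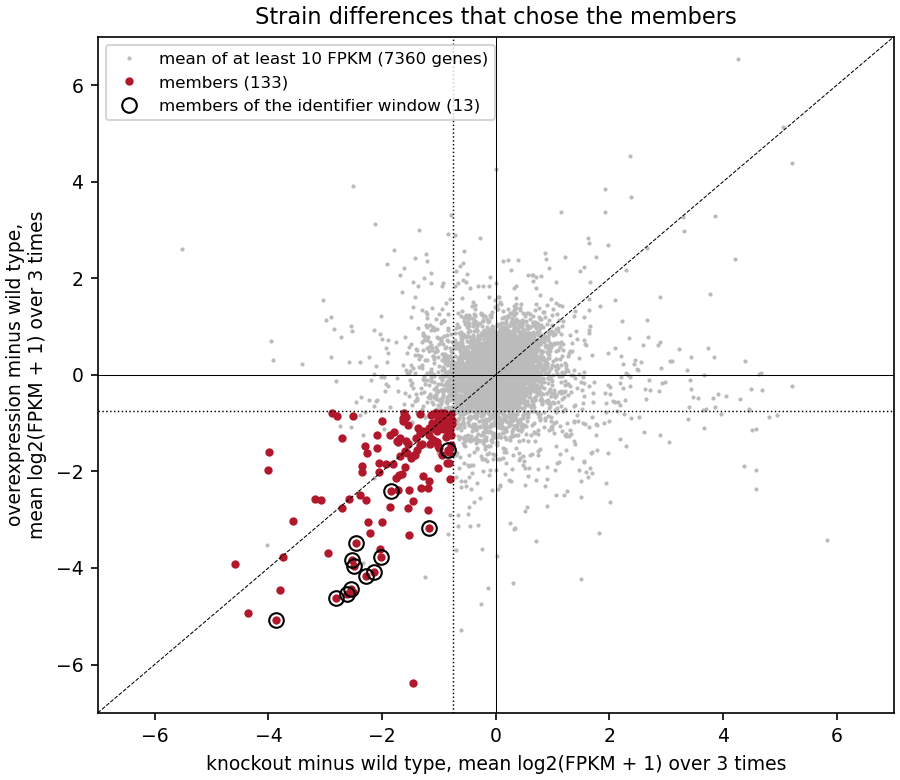
Mean log2(FPKM + 1) difference over the 3 times, overexpression minus wild type (vertical) against knockout minus wild type (horizontal), for 7360 genes (grey), the 133 members (red) and the 13 members of one run of identifiers (circled); dotted lines mark -0.75 and the dashed line equal differences. By the rule every member lies below and left of the dotted lines, and 80 of the 133 lie below the dashed line.

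Together the 133 genes held 1.51%, 1.68% and 1.27% of all FPKM with AcmybA overexpressed at 48, 72 and 96 h and 5.24%, 3.06% and 1.46% with AcmybA lost, against 14.3%, 6.43% and 4.68% in wild type. KFH42067.1 alone held 8.84% of the wild-type sum at 48 h. Without it the shares were 1.47%, 1.66% and 1.24% in overexpression and 1.86%, 1.68% and 1.34% with AcmybA lost, against 5.43%, 4.67% and 3.95% in wild type. Without KFH42067.1 the knockout's share was thus still above that of overexpression at 48 h, by much less than with it, and at 72 h the shares of the mutants were nearly equal.

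KFH42067.1 read 516, 157 and 254 FPKM at 48, 72 and 96 h with AcmybA overexpressed and 34236, 14243 and 1212 FPKM with AcmybA lost, against 93099.7, 18436 and 7115 FPKM in wild type. At every time overexpression was far below the knockout and the knockout below wild type. KFH48817.1, the second most abundant by its wild-type mean, read 549, 1054 and 379.9 FPKM with AcmybA overexpressed and 1613, 1580.1 and 743 FPKM with AcmybA lost, against 5809, 5564 and 3818 FPKM in wild type. At each time overexpression was lowest, the knockout between and wild type highest; over all times the mutants overlapped each other, and neither reached wild type.

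KFH43476.1 read 1921, 1550.1 and 998 FPKM with AcmybA overexpressed and 1105, 1019 and 2107 FPKM with AcmybA lost, against 3879, 3984 and 3810.0 FPKM in wild type. KFH46779.1 read 1163, 1085 and 565 FPKM with AcmybA overexpressed and 825, 626 and 2161 FPKM with AcmybA lost, against 2579, 2693 and 3244 FPKM in wild type. In both of these genes overexpression was lowest and the knockout highest of its own times at 96 h, and the mutants overlapped each other but not wild type. KFH43443.1 read 417, 1259.6 and 739 FPKM with AcmybA overexpressed and 1019, 2169.7 and 334 FPKM with AcmybA lost, against 2123, 3970.4 and 2412 FPKM in wild type. KFH44895.1 read 1201, 680.4 and 384 FPKM with AcmybA overexpressed and 1759, 501 and 924 FPKM with AcmybA lost, against 3048, 1509.5 and 1472 FPKM in wild type. In KFH43443.1 and KFH44895.1 the highest mutant library overlapped the wild-type range, and the order held only within each time.

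Of the 8 genes lowest in both mutants, none of them among the 6 most abundant, 5 were far higher in wild type at 72 h than at 48 h. KFH45536.1 read 0.899, 0.132 and 0.281 FPKM with AcmybA overexpressed and 1.06, 0.769 and 1.42 FPKM with AcmybA lost, against 5.81, 319.8 and 34.3 FPKM in wild type. KFH48869.1 read 0.346, 0.383 and 0.135 FPKM with AcmybA overexpressed and 1.41, 1.11 and 0.685 FPKM with AcmybA lost, against 3.29, 206 and 24.5 FPKM in wild type. KFH46527.1 read 35.4, 24.7 and 7.28 FPKM with AcmybA overexpressed and 16.9, 12.2 and 7.26 FPKM with AcmybA lost, against 59.7, 1941 and 229.9 FPKM in wild type. In all of these the wild type at 72 h stood far above every other library, wild type at 96 h came next, and both mutants stayed low at all 3 times.

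KFH40330.1 and KFH40329.1, which carry consecutive identifier numbers, had the same order. KFH40330.1 read 28.7, 8.56 and 25.4 FPKM with AcmybA overexpressed and 33.1, 16.1 and 12.7 FPKM with AcmybA lost, against 112, 620.0 and 267 FPKM in wild type. KFH40329.1 read 0.796, 5.03 and 13.9 FPKM with AcmybA overexpressed and 0.784, 10.2 and 1.56 FPKM with AcmybA lost, against 18.1, 103 and 42.6 FPKM in wild type. In both genes each wild-type library was above all 6 mutant libraries, and the 72 h library was highest. KFH48011.1, also among the 8 lowest, varied little over time in wild type. Its values were 2.50, 1.42 and 11.6 FPKM with AcmybA overexpressed and 2.26, 17.2 and 7.64 FPKM with AcmybA lost, against 59.4, 70.1 and 53.4 FPKM in wild type.

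Over the 7360 genes, 0.611% (45 genes) were at least 2-fold higher, as log2(FPKM + 1), in wild type at 72 h than in every library except wild type at 96 h, and 22 of these belonged to the 133. The share rests on a single library, and the rule itself asks for a high wild type. Ranked by Pearson's r of log2(FPKM + 1) with KFH46527.1 over the 9 libraries, the 10 nearest of 7359 genes held 7 members and the 20 nearest 14. The nearest were KFH48869.1 and KFH45536.1, both with r = 0.951. By ranks (Spearman), which give the high library no extra weight, the 20 nearest held 7 members. Since KFH46527.1 was chosen by the same rule, members lie near it by selection, and nothing is read from these counts. Without the wild-type library at 72 h the rule took 135 genes, of which 112 were among the 133.

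A second group stood out by its identifiers. The identifiers number from 40211 to 49109 without gaps, and a run of 100 numbers held 1.495 of the 133 genes on average. The numbers from 47332 to 47421 held 13 of them. In bins of 100 the highest count outside 47300 to 47599 was 4, and 21 members lay between 47332 and 47525. Whether consecutive numbers are neighbours in the genome was not analysed here.

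**Figure D3:**
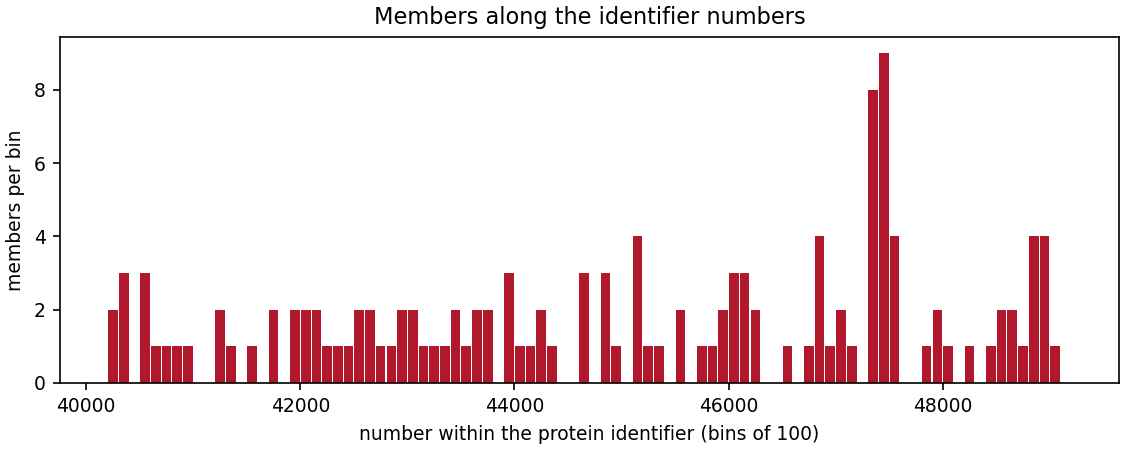
Number of the 133 genes in each bin of 100 consecutive protein identifier numbers. The bins from 47300 and 47400 hold 8 and 9 members, and the others 0 to 4.

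KFH47344.1, the most abundant of the 13 by its wild-type mean, read 6.16, 82.4 and 73.8 FPKM with AcmybA overexpressed and 169.9, 365 and 39.9 FPKM with AcmybA lost, against 1034, 589.5 and 356 FPKM in wild type. KFH47332.1 read 3.51, 18.2 and 17.3 FPKM with AcmybA overexpressed and 49.8, 121 and 10.04 FPKM with AcmybA lost, against 506, 282 and 164 FPKM in wild type. KFH47396.1 read 1.36, 15.2 and 13.1 FPKM with AcmybA overexpressed and 33.7, 87.4 and 8.37 FPKM with AcmybA lost, against 301, 183 and 120.3 FPKM in wild type. Each of these was lowest in overexpression at 48 h, low again in the knockout at 96 h, nearest to wild type in the knockout at 72 h, and highest in wild type at 48 h.

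KFH47406.1 was listed at 0 in both the 48 h overexpression library and the 96 h knockout library. Elsewhere it read 59.2 and 92.7 FPKM in the later overexpression libraries and 169.8 and 417 FPKM in the earlier knockout ones, against 865, 502 and 502 FPKM in wild type. An exact 0 can be a failed estimate, and its 417 FPKM in the knockout at 72 h equals in every digit that of KFH47410.1, which is no member, in the same library, so it was set apart from the other 12. The only other member listed at 0 in a library was KFH44638.1, in the knockout at 72 h, with 41.4, 24.7 and 51.2 FPKM in overexpression, 34.8 and 26.6 FPKM in the other knockout libraries and 47.4, 124 and 53.8 FPKM in wild type.

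Among those 12 genes the profile was shared closely. In overexpression all 12 were at least 2-fold higher at 72 h than at 48 h (background 11.2% of 7360 genes), with a median log2 difference of 2.33. In wild type all 12 were lower at 72 h than at 48 h (background 50.9%), by a median of -0.73. In the knockout 11 of 12 were higher at 72 h than at 48 h (median 1.07, background 42.4%). All 12 were lower there at 96 h than at 72 h (median -3.06, background 50.1%), 10 of them at least 2-fold (background 3.85%). The exceptions to the 2-fold drop in the knockout were KFH47338.1, at 60.5, 51.6 and 31.95 FPKM there, and KFH47400.1, at 97.3, 129 and 73.4 FPKM. Overexpression minus wild type had a median of -6.17, -2.92 and -2.77 at 48, 72 and 96 h, and the knockout minus wild type one of -2.77, -0.89 and -3.38. By these medians the widest gap was at 48 h in overexpression and at 96 h in the knockout. In KFH47338.1 and KFH47400.1 the knockout's gap was wider at 48 h than at 96 h.

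Of the same run of identifiers, 54 further genes had a mean of at least 10 FPKM and did not meet the rule, so their distance from the members in differences from wild type is set by the selection. Their own values went both ways. Overexpression minus wild type at 48 h had a median of -0.09 (range -2.32 to 3.30), with 6 of the 54 at least 2-fold lower and 5 at least 2-fold higher. The knockout minus wild type at 96 h had a median of 0.05 (range -1.20 to 1.91), with 2 at least 2-fold lower and 7 at least 2-fold higher. From 48 to 72 h in overexpression, 11 of the 54 rose at least 2-fold (background 11.2% of 7360 genes) and 4 fell at least 2-fold (background 9.65%). Ranked by r with KFH47344.1 over the 9 libraries, the 10 nearest of 7359 genes all lay in the run, with r from 0.936 to 0.995, and by Spearman all 10 did too. The median r was 0.616 over the other members and -0.11 over the 7359 genes. Since the rule puts wild type above both mutants in all members, members correlate with each other by selection, and nothing is read from the gap between these medians. The points also share their libraries, and 9 libraries give r little precision.

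**Figure D4:**
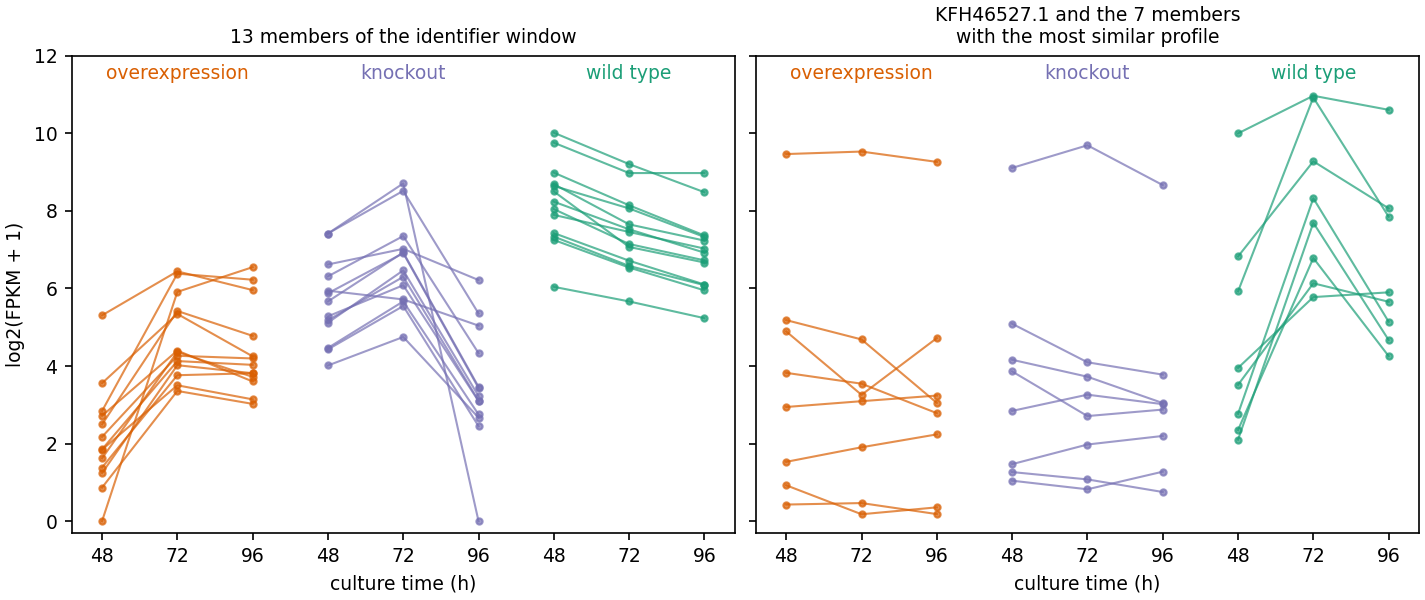
Levels (log2(FPKM + 1)) over culture time in overexpression, knockout and wild type, for the 13 members with identifiers from 47332 to 47421 (left) and for KFH46527.1 with the 7 members nearest to it by r (right); each line is 1 gene in 1 strain. On the left all 13 are higher at 72 h than at 48 h in overexpression and lower in wild type; on the right wild type at 72 h is above every mutant library of the same gene.

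The rule put no direct condition on the difference between the mutants. It did require both to lie at least 0.75 below wild type on average, which leaves out genes changed in 1 mutant only. The share of members called is therefore not free of the selection. limma was fitted to log2(FPKM + 1) of all 9 libraries, with strain and time as factors, over the 8482 genes that reached 1 FPKM in 3 or more libraries. All 133 members passed that filter. With Benjamini-Hochberg adjustment at 0.05, 10 of the 133 (7.52%) differed between overexpression and knockout, where 8.91% of all tested genes did, a share near that of the whole table. Lower in overexpression were 5 (background 5.41%) and higher 5 (background 3.5%). With FPKM totals set equal, which moves the median of all genes to 0.15, the split was 5 higher and 2 lower, and after quantile normalisation 3 higher and 6 lower. The median log2 difference was -0.14 for the members and 0.04 for all genes. With 1 library per condition the residual is the departure from additive strain and time effects, and p-values measure only that spread. By the estimates above, overexpression was also sequenced more deeply than the knockout at 72 and 96 h. Depth and strain cannot be told apart in this contrast.

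The 5 that were lower in overexpression included KFH42067.1, whose log2 difference was -4.93 (SE 0.79, limma adjusted p = 0.011). KFH43318.1 read 6.87, 13.99 and 12.7 FPKM with AcmybA overexpressed and 26.2, 99.2 and 23.2 FPKM with AcmybA lost, against 80.5, 193 and 98.8 FPKM in wild type, and overexpression was lower than the knockout by a log2 difference of -1.78 (SE 0.33, limma adjusted p = 0.0184). KFH47338.1, of the run of identifiers, read 5.58, 20.1 and 11.1 FPKM with AcmybA overexpressed and 60.5, 51.6 and 31.95 FPKM with AcmybA lost, against 171, 104 and 67.7 FPKM in wild type. Its log2 difference was -1.99 (SE 0.45, limma adjusted p = 0.0381). In these 3 genes every overexpression library was below every knockout library. The differences of KFH45267.1 and KFH43703.1 were -1.15 and -0.72 (limma adjusted p = 0.046 and 0.0464), and both calls ended whichever library was left out.

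In the 5 that were higher in overexpression, the knockout lay below overexpression at each time. KFH47843.1 read 43.9, 13.4 and 22.7 FPKM with AcmybA overexpressed and 5.89, 3.01 and 2.77 FPKM with AcmybA lost, against 168, 60.99 and 39.3 FPKM in wild type, a log2 difference of 2.40 between the mutants (SE 0.31, limma adjusted p = 0.00477). KFH42220.1 read 309, 79.8 and 87.5 FPKM with AcmybA overexpressed and 61.4, 34.02 and 13.9 FPKM with AcmybA lost, against 964, 396 and 349.8 FPKM in wild type, with a log2 difference of 2.03 (SE 0.28, limma adjusted p = 0.00587). Overexpression stood between the knockout and wild type at each time in both. KFH42068.1, next in number to KFH42067.1, read 18.98, 26.7 and 22.7 FPKM with AcmybA overexpressed and 2.51, 15.2 and 1.99 FPKM with AcmybA lost, against 29.4, 56.99 and 37.5 FPKM in wild type. Its log2 difference was 2.09 (SE 0.41, limma adjusted p = 0.0231), opposite in sign to that of KFH42067.1. KFH45378.1 and KFH40525.1 differed by 1.66 and 1.04 (limma adjusted p = 0.0395 and 0.0411).

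The calls of KFH47843.1 and KFH42220.1 held whichever library was left out. That of KFH42067.1 ended without overexpression at 72 h, and that of KFH43318.1 without overexpression at 72 h or the knockout at 48 or 72 h. KFH42068.1 lost its call without overexpression at 48 or 96 h or the knockout at 48 or 96 h. KFH47338.1 and KFH40525.1 lost theirs in 7 of 9 such fits and KFH45378.1 in 8. Over all alternatives the adjusted p of these 8 genes ran from 0.00408 to 0.229, and no log2 difference changed sign. The number of members called fell to 3 without overexpression at 72 h or the knockout at 48 h, to 4 and 5 when the 72 h or the 96 h knockout library was left out, and to 6 without wild type at 72 or 96 h. With no time term 0 of the 133 were called and 21 had an unadjusted limma p under 0.05, against 32 with it (background with it 23.9%).

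**Figure D5:**
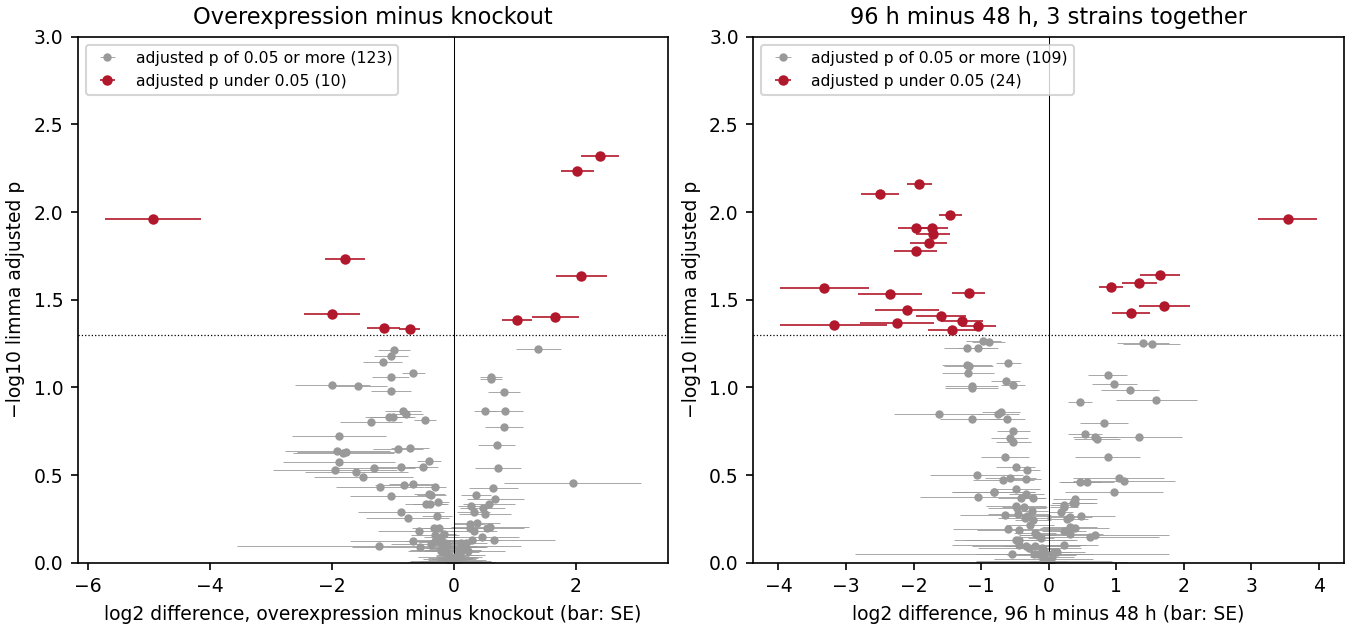
Fitted log2 difference (horizontal, bars are SE) and −log10 of the limma adjusted p (vertical) of the 133 members, for overexpression minus knockout (left) and 96 h minus 48 h over the 3 strains (right); the dotted line is an adjusted p of 0.05. On the left 10 genes pass, 5 on each side; on the right 24 pass, 18 of them below 0.

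At single times the balance between the mutants varied, with no replicate to test it. At 48 h, 36 of the 133 were at least 2-fold lower in overexpression than in the knockout (background 12% of 7360 genes) and 12 at least 2-fold higher (background 6.98%). At 72 h there were 26 lower (background 8.1%) and 16 higher (background 9.48%), and at 96 h 16 lower (background 9.99%) and 20 higher (background 8.93%). All 13 genes of the identifier run were among the 36 at 48 h, and 11 of them among the 26 at 72 h. Among the other 120 members 23 were at least 2-fold lower and 12 at least 2-fold higher in overexpression at 48 h. At 72 h these numbers were 15 and 16, and at 96 h 15 and 18, so outside the run the sides were nearly even at both times. Of the 9 libraries, overexpression at 48 h and the knockout at 96 h were the lowest for 37 and 36 members, against 16.3% and 12.2% of the 7360 genes. The rule keeps every wild-type library from being the lowest of a member. Over the 7360 genes wild type at 48, 72 and 96 h was lowest for 14.4%, 9.93% and 9.08%. The selection thus raises the counts of the mutant libraries, and nothing is read from the gap.

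A second comparison, on which the rule put no direct condition, is that of culture times. Between 48 and 96 h, over the 3 strains together, 24 of the 133 changed by limma's test (18%), where 12.2% of tested genes did. Of these 18 fell (13.5% of the members, background 6.19%) and 6 rose (4.51%, background 5.99%). Members had a mean of at least 10 FPKM, whereas the tested genes had only to reach 1 FPKM in 3 or more libraries. The rule also used the same libraries. The shares of members called are therefore not free of the selection, and nothing is read from their distance to the backgrounds. The median log2 difference was -0.28 for the members and -0.06 for all genes, a median that turns to 0.08 with FPKM totals set equal and to 0.01 with median-of-ratios factors. None of the 13 genes of the identifier run was called, and their strains ran in different directions over time.

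KFH46950.1 read 609, 85.2 and 105 FPKM at 48, 72 and 96 h with AcmybA overexpressed and 904, 417 and 31.2 FPKM with AcmybA lost, against 1871, 742 and 302 FPKM in wild type. It fell over time, with a log2 difference of -3.32 (SE 0.66, limma adjusted p = 0.0272). KFH41997.1 read 346, 148 and 57.4 FPKM with AcmybA overexpressed and 373, 309 and 56.8 FPKM with AcmybA lost, against 1412, 601 and 299 FPKM in wild type, and fell with a log2 difference of -2.50 (SE 0.28, limma adjusted p = 0.00785). KFH42559.1 read 108, 138 and 50.2 FPKM with AcmybA overexpressed and 382, 79.8 and 30.5 FPKM with AcmybA lost, against 1212, 469 and 239 FPKM in wild type, a log2 difference of -2.35 (SE 0.48, limma adjusted p = 0.0294). In these genes each strain was lowest at 96 h, except KFH46950.1 in overexpression, which was lowest at 72 h. KFH42067.1 and KFH43189.1 also fell, with log2 differences of -3.18 and -2.24 (limma adjusted p = 0.044 and 0.0427).

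Among the rising genes KFH42434.1 read 1.81, 10.4 and 21.6 FPKM with AcmybA overexpressed and 3.20, 29.7 and 32.2 FPKM with AcmybA lost, against 4.81, 124 and 142 FPKM in wild type. Its log2 difference was 3.53 (SE 0.43, limma adjusted p = 0.011), and all 3 strains increased at each step. KFH43975.1 read 72.6, 352 and 426 FPKM with AcmybA overexpressed and 74.7, 173 and 195 FPKM with AcmybA lost, against 224, 662 and 458 FPKM in wild type, a log2 difference of 1.65 (SE 0.30, limma adjusted p = 0.0229). KFH40546.1, KFH42155.1 and KFH45267.1 rose by 1.71, 1.34 and 1.22 (limma adjusted p = 0.0343, 0.0254 and 0.0374).

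KFH41997.1 and KFH42434.1 kept their calls in all 17 alternatives. KFH43975.1 lost its call without overexpression at 96 h or the knockout at 96 h. KFH42559.1 and KFH42155.1 lost theirs in 5 of 9 fits with 1 library left out, KFH46950.1 and KFH45267.1 in 7, and KFH42067.1, KFH43189.1 and KFH40546.1 in 8. The number of members called was 6 without the knockout at 96 h, 8 without overexpression at 96 h and 9 without wild type at 48 h. It was 10 without wild type at 72 or 96 h and 13 without overexpression at 72 h.

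Within single strains, wild type was at least 2-fold lower at 96 h than at 48 h for 45 of the 133 genes (background 7.23%) and at least 2-fold higher for 28 (background 10.6%). In the knockout these numbers were 43 (background 9.65%) and 14 (background 6.97%), and in overexpression 30 (background 16.9%) and 25 (background 13.5%). Between 72 and 96 h the knockout was at least 2-fold lower for 42 members, where 3.85% of the 7360 genes were. Of these 42, 11 belonged to the identifier run. Wild type had its highest value at 48 h for 68 members, at 72 h for 47 and at 96 h for 18. Over the 7360 genes the shares were 41.5%, 30.2% and 28.2%. The rule was set on these same libraries and favours a high wild type and low mutants. The counts within strains are therefore not free of the selection, and nothing is read from their distance to the backgrounds.

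Differences in linear slope per 24 h between overexpression and knockout gave 0 calls by limma among the 133 and 0 among all tested genes. At an unadjusted limma p under 0.05 there were 33 members (24.8%), where 9.89% of tested genes were. That number was 7 without overexpression at 48 h and 11 without the knockout at 96 h. With any other library left out it was 28 to 46. The fitted slope was higher in overexpression than in the knockout for 83 members (background 50.6%). The rule used the same libraries, so these shares are not free of the selection. Slopes of either mutant against wild type, which the rule limits, gave 0 calls as well, with 20 members at an unadjusted p under 0.05 in overexpression (background 9.34%) and 6 in the knockout (background 5.51%). In simulated data on 8482 genes a slope difference of 1 was called for 8% of changed genes and one of 2 for 80%. In the measured libraries members with a fitted difference above 2 were not called. KFH47344.1 and KFH47006.1, for instance, had slope differences of 2.72 and 2.32 between overexpression and knockout (limma adjusted p = 0.473 and 0.219). The 80% is therefore not applied to the measured genes, and nothing is read from the 0 calls.

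The rule was also applied to 2 times only, and the third was then looked up. The filter on the mean over all 9 libraries was kept, so the libraries of the third time entered the choice through that filter. A gene could pass it through a high wild type at the third time alone. KFH48869.1, for instance, read 206 FPKM in wild type at 72 h and 0.135 to 24.5 FPKM in every other library. Such genes favour the shares that follow, by an amount that was not measured. The libraries of 72 and 96 h chose 215 genes. At 48 h both mutants were below wild type for 129 of them (60%), where 22.7% of the 7360 genes were. The libraries of 48 and 96 h chose 140 genes, and at 72 h both mutants were below wild type for 127 (90.7%, background 25.9%). Those of 48 and 72 h chose 161, and at 96 h both mutants were below for 129 (80.1%, background 29.4%).

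Both at least 0.75 below wild type were 77 of the 215 at 48 h (35.8%, background 3.03%), 86 of the 140 at 72 h (61.4%, background 3.67%) and 88 of the 161 at 96 h (54.7%, background 3.95%). The median log2 difference in the third time was -0.88, -1.45 and -1.37 in overexpression and -0.70, -1.17 and -1.41 in the knockout, for 48, 72 and 96 h. The shares were lowest at 48 h. The filter on the mean may favour each time by a different amount, so nothing is read from their order. Both mutants are set against the same wild-type library at each time, and nothing says that the libraries of a strain came from separate cultures, so these shares are descriptions. Without wild type at 48 h the rule took 202 genes, 106 of them among the 133, which makes that library the one on which membership depended most.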

How the data were processed

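Mycelium RNA of 9 libraries was analysed, 1 for each of 3 strains at 3 times. Per the labels' protocols, Trizol was used for extraction and the polyadenylated fraction was sequenced. CASAVA and HISAT2 2.0.5 were used, per the submitters' processing notes, in roles that are not stated; neither the genome build nor the counting tool is given in the sources used here. No unit is named in the deposited table. Its values are treated as FPKM made by the authors, from their sums and length-dependent steps, and all 9 columns matched a library by name. FPKM are not counts and the depth is unknown, so no counting interval is given, and low genes are less precise in shallower libraries.

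Fold changes are on the log2(FPKM + 1) scale, which understates the change of low genes. Strain and time were fitted as factors with limma 3.58.1 (R 4.3.3), with an intensity trend, to the 8482 genes that reached 1 FPKM in 3 or more libraries; 4 residual degrees of freedom remain, 3 for slopes. Tests were two-sided, with Benjamini-Hochberg adjustment over all genes tested. The fit was tested on simulated data, where log2 differences of 1 and 2 between overexpression and knockout were called for 36% and 84% of changed genes. In the measured libraries some members with a fitted difference near 2 were called and others were not. KFH42220.1, at 2.03, was called (limma adjusted p = 0.00587). KFH43073.1 and KFH47344.1, at -1.99 and -1.95, were not (limma adjusted p = 0.0965 and 0.295). The 36% and 84% are therefore not applied to the measured genes. Members, lists and comparisons were chosen with earlier results of these data known. Named were the 8 members lowest in both mutants, the 6 highest in wild type, up to 5 per direction in each tested comparison, 3 genes on each side of the threshold and members listed at 0; the genes of the identifier run and of the wild-type 72 h group were named after their values were seen. Time is in the fit as the block that pairs libraries across strains. Alternatives covered scaling, pseudocount, filters, trend, block and left-out libraries.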

Additional observations from a re-analysis of the deposited data

Results flagged for a closer look

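The 13 members with identifiers from 47332 to 47421 moved in opposite directions between 48 and 72 h in overexpression and in wild type. Their median log2 difference, 72 h minus 48 h, was 2.38 in overexpression and -0.76 in wild type. In overexpression all 13 were higher at 72 h (background 46.8% of 7360 genes), and in wild type all 13 were lower (background 50.9%). With 1 library per strain and time the difference was not tested. The members of the run were counted together after their values were seen, and they share the same 4 libraries.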

How the results depend on the processing

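The rule took 206 genes at a threshold of -0.5, 219 without all 48 h libraries and 130 to 202 with 1 library left out; the other alternatives gave 94 to 168. Of the members, 10 were called between overexpression and knockout. The number was 4 with no filter on low values, 0 without the time block, 4, 3 and 3 without all 48, 72 or 96 h libraries, and 3 to 9 with 1 library left out. Between 96 and 48 h, 24 were called, against 13 with no filter and 6 to 22 with 1 library left out. Left-out libraries also leave fewer samples in the fit; otherwise the cause was not tested. No named gene changed sign in its alternatives. The balance of members called between overexpression and knockout did shift with scaling, from 5 higher and 5 lower to 5 and 2 with equal totals and 3 and 6 after quantile normalisation, and the all-gene median of 96 h minus 48 h changed sign. Slope differences gave 0 calls among the members in each alternative run; among all genes 1 was called between overexpression and knockout without the knockout at 96 h, and 1 between overexpression and wild type after quantile normalisation. The shares in the third time moved to 59.5% and 62.4% at 48 h, 90.7% and 90.6% at 72 h and 79.3% and 78.6% at 96 h, with a pseudocount of 0.1 and with median-of-ratios factors. Alternatives chosen after seeing the data were other widths of the identifier run (7 members in 50 numbers, 21 in 200), Spearman in place of Pearson, and leaving out the 13 genes of the run, which gave 9 and 24 calls. Single libraries, unknown depth and identifiers without names limit what can be said of any gene.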

Other observations

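Outside the 133, the gene with the highest r to KFH47344.1 of the identifier run over the 9 libraries was KFH45334.1, with r = 0.923. It read 29.3, 82.2 and 98.5 FPKM at 48, 72 and 96 h with AcmybA overexpressed and 105, 159 and 91.0 FPKM with AcmybA lost, against 141, 207 and 171 FPKM in wild type. It was lowest in overexpression at 48 h, as the run was, but its wild type was higher at 72 h than at 48 h, where all 13 genes of the run were lower. KFH47100.1, with r = 0.920 to KFH46527.1, read 64.3, 69.3 and 52.1 FPKM with AcmybA overexpressed and 44.7, 47.6 and 47.6 FPKM with AcmybA lost, against 77.8, 109 and 91.2 FPKM in wild type. Its highest library was wild type at 72 h, with a much smaller range than KFH46527.1. Both genes were named after their values were seen, for the highest r among genes that are no members.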
